A study of Rattus norvegicus with 8 samples.

Results

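RNA-Seq counts of the rat thyroid were examined for 10 endothelial and angiogenic genes, Pecam1, Cdh5, Kdr, Flt1, Tek, Vwf, Emcn, Plvap, Esam, and Vegfa. The genes were looked for by symbol in the deposited counts, and the transcript with the highest summed count stood for each gene. Of the 10 genes, 9 were found among 30560 gene identifiers, and Flt1, a receptor for VEGF, was not analysed here. Thyroid RNA came from 8 male Wistar rats, 2 in each of 4 groups. The 1w0Gy and 1w4Gy rats had the neck X-irradiated with 4 Gy, or were sham-irradiated, at 1 week of age, and the 4m0Gy and 4m4Gy rats received the same at 4 months of age. The thyroids were removed about 8 weeks after the exposure, so the groups named for 1 week and for 4 months also differed in age at removal. Each sample was from a different rat, and within each group the RNA samples with the higher RNA integrity had been selected for sequencing. The 2 samples of a group are written #1 and #2.

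The thyroid follicle is wrapped in a dense network of fenestrated capillaries that carry iodide in and thyroid hormone out. Follicular cells release vascular endothelial growth factor A (Vegfa), which acts on endothelial cells through its receptors, mainly the tyrosine kinase Kdr (VEGFR2). Angiopoietins act on a second endothelial receptor, Tek (Tie2), and adhesion molecules such as Pecam1 and VE-cadherin (Cdh5) hold endothelial cells together. The comparisons asked whether the mRNA levels of these genes differed after irradiation at either age, and between the age groups.

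A sample held between 14835406 and 18138106 counts on genes. The thyroid label was borne out by the markers, with 9 thyrocyte genes summing to between 189490 and 224233 CPM, which are counts scaled to the library total after TMM normalization over the 8 samples. Thyroglobulin, Tg, made up most of this sum, at 183182 to 216681 CPM, and 7 others were above 60 CPM in every sample, while Slc26a4, the iodide transporter pendrin, was at 0 to 0.39 CPM and too low to test. Cdkn1a, a p53 target that rises after irradiation, was checked first. It was at 14.3 to 17.4 CPM in the 4 sham-irradiated samples and at 38.2 to 46.5 CPM in the 4 irradiated samples. The samples of each group differed by more than counting noise, the chi-square divided by its degrees of freedom being 7.97 to 16.2. In bulk thyroid RNA, fewer endothelial cells and less RNA per endothelial cell cannot be told apart.

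All 9 genes were well above the level of a few reads, with between 465 counts for Vwf and 23433 for Vegfa in single samples. Levels of different genes were compared as TPM, which is scaled by transcript length. Vegfa, the secreted ligand, was highest with a median of 331 TPM and a range of 316 to 360 TPM over the 8 samples. Plvap, which forms the diaphragms of fenestrated capillaries, followed with a median of 136 TPM. Emcn, a sialomucin of capillary and venous endothelium, had a median of 67.5 TPM, and Pecam1, the adhesion molecule CD31, had 59.1 TPM. Kdr had a median of 32.2 TPM. Esam, a tight junction adhesion molecule, was at 21.3 TPM, Cdh5 at 20.4 TPM, and Tek at 14.2 TPM. Vwf, the clotting factor that endothelial cells store and release, was lowest with a median of 3.40 TPM and a range of 3.02 to 4.29 TPM. The ranges over samples overlapped between Emcn and Pecam1, between Esam and Cdh5, and between Cdh5 and Tek. Emcn was above Pecam1 in every sample but 1w4Gy #2, where they were at 67.2 and 74.3 TPM. Cdh5 was above Esam in every sample of the 1-week groups and below it in every sample of the 4-month groups. Cdh5 was above Tek in each of the 8 samples, the closest values being 18.4 and 17.9 TPM in 4m0Gy #2. No other neighbours in the order overlapped.

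**Figure D1:**
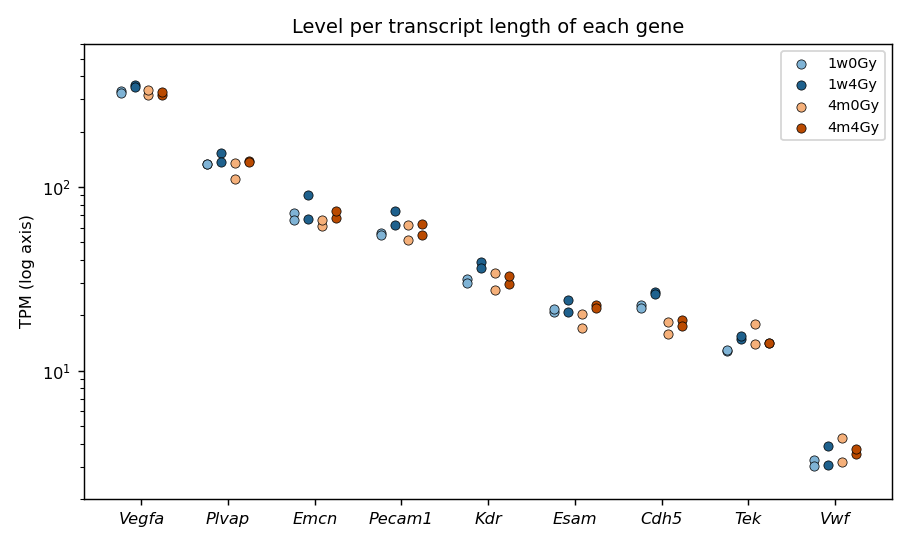
TPM of each gene in each of the 8 samples on a log axis, in order of the median, with points coloured by group. Vegfa lay between 316 and 360 TPM in every sample and Vwf between 3.02 and 4.29 TPM.

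Among the junction and adhesion genes, Cdh5 was at 96.8 and 94.2 CPM in 1w0Gy, 115 and 109 CPM in 1w4Gy, 67.9 and 76.9 CPM in 4m0Gy, and 83.0 and 78.4 CPM in 4m4Gy. All 4 samples of the 4-month groups were below all 4 samples of the 1-week groups. Pecam1 was at 202 and 198 CPM in 1w0Gy, 224 and 262 CPM in 1w4Gy, 186 and 219 CPM in 4m0Gy, and 232 and 206 CPM in 4m4Gy. Its irradiated samples were above the sham samples in the 1-week groups and overlapped them in the 4-month groups. Esam was at 40.3 and 42.2 CPM in 1w0Gy, 47.3 and 39.7 CPM in 1w4Gy, 33.0 and 38.5 CPM in 4m0Gy, and 45.4 and 44.8 CPM in 4m4Gy. For Esam the order was the other way, with irradiated samples above sham samples only in the 4-month groups.

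Of the capillary and secretory genes, Plvap was at 356 and 359.7 CPM in 1w0Gy, 409 and 355 CPM in 1w4Gy, 295 and 353 CPM in 4m0Gy, and 378 and 383 CPM in 4m4Gy. Emcn was at 107 and 98.8 CPM in 1w0Gy, 135 and 98.2 CPM in 1w4Gy, 91.5 and 96.9 CPM in 4m0Gy, and 103 and 116 CPM in 4m4Gy. For both genes the 1w4Gy samples were far apart, #1 above both sham samples and #2 just below them, while both 4m4Gy samples exceeded both 4m0Gy samples. Vwf was at 30.8 and 28.8 CPM in 1w0Gy, 29.03 and 35.8 CPM in 1w4Gy, 29.9 and 39.7 CPM in 4m0Gy, and 34.2 and 37.1 CPM in 4m4Gy, with overlap between the sham and irradiated samples at both ages.

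Of the receptors, Kdr was at 199.6 and 191 CPM in 1w0Gy, 248 and 225 CPM in 1w4Gy, 172 and 210.2 CPM in 4m0Gy, and 191 and 217 CPM in 4m4Gy. Tek was at 62.6 and 64.2 CPM in 1w0Gy, 72.8 and 73.9 CPM in 1w4Gy, 68.0 and 85.7 CPM in 4m0Gy, and 71.1 and 72.6 CPM in 4m4Gy. Both receptors had 1w4Gy samples above the 1w0Gy samples, and in 4m0Gy #2 was above #1 for both. Vegfa was at 1267 and 1252 CPM in 1w0Gy, 1378 and 1299 CPM in 1w4Gy, 1202 and 1251 CPM in 4m0Gy, and 1236 and 1311 CPM in 4m4Gy. The ligand varied least, with a highest sample 1.15 times the lowest, against 1.37 times for Tek and 1.69 times for Cdh5 at the ends of the range of the other 8 genes.

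**Figure D2:**
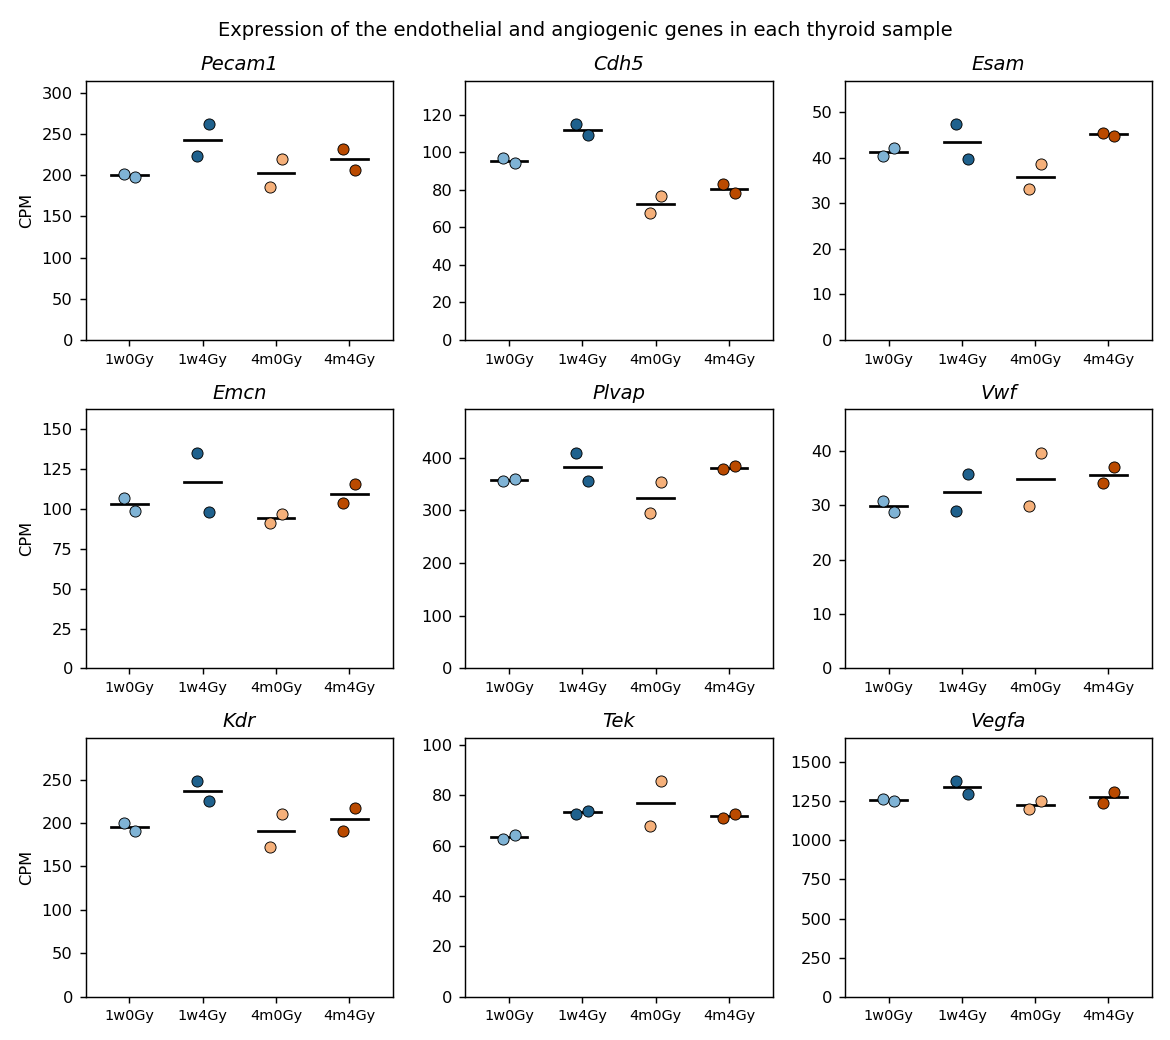
CPM of the 9 genes in each sample, with 1 panel per gene, points for the 2 samples of each group and a bar for their mean. The 4 samples of the 4-month groups, at 67.9 to 83.0 CPM, were below the 4 samples of the 1-week groups, at 94.2 to 115 CPM, for Cdh5, and the other 8 panels show overlap between the age groups.

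Cdh5 was lower in the 4-month groups and was the only one of the 9 genes that passed the test between the age groups. Over both doses, with dose as a covariate, edgeR's quasi-likelihood fit put it at -0.44 ± 0.0588 on the log2 scale (fold change and standard error) with a Benjamini-Hochberg adjusted p of 0.00305, or 0.738 times the level of the 1-week groups. Of 15684 genes tested, 4.27% were called at an adjusted p under 0.05 in this comparison, 2.39% in the lower direction, and 6.45% had all 4 samples of the 4-month groups below all those of the 1-week groups. The call was made in 9 of 9 other settings, with adjusted p-values up to 0.00609, and in 8 of 8 fits that left out 1 sample, with log2 fold changes between -0.48 and -0.41 and adjusted p-values up to 0.0177. The other 8 genes had log2 fold changes from -0.12 for Kdr to 0.18 for Vwf. None of them was past an unadjusted p of 0.05, which 20.5% of all genes were. Tek, at 0.12, and Vwf had positive values and the rest negative ones. The median over the 9 genes was -0.076, against -0.0022 over all genes tested. It was -0.033 without 4m0Gy #1, -0.047 without 1w4Gy #1, and -0.13 without 1w4Gy #2.

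In the sham-irradiated rats alone, 4m0Gy against 1w0Gy, none of the 9 genes was called by edgeR's test, in which 1.06% of 15364 genes were called, and none by DESeq2's Wald test. Cdh5 and Tek had an unadjusted p under 0.05, as did 17.8% of all genes tested. By edgeR with Benjamini-Hochberg adjustment, the log2 fold change of Cdh5 was -0.40 ± 0.0800 (standard error, adjusted p = 0.0714) and that of Tek was 0.28 ± 0.112 (adjusted p = 0.265). In this comparison the groups did not overlap for Cdh5, Emcn, Plvap, Esam, and Vegfa, all lower in 4m0Gy, and for Tek, higher in 4m0Gy. Groups of 2 failed to overlap for 50.2% of all genes, 25.1% in the lower direction. Whether a gene passed hung on single samples and on the filter. Without 4m0Gy #2 the adjusted p of Cdh5 was 0.00651, without 4m0Gy #1 that of Tek was 0.0366, and without a filter on low counts that of Cdh5 was 0.0181, all in edgeR's test. In 4m0Gy, #2 was above #1 for all 8 endothelial genes, against 3 of 8 in 1w0Gy, 3 of 8 in 1w4Gy, and 5 of 8 in 4m4Gy. The median over the 9 genes was -0.037, and -0.17 without 4m0Gy #2, -0.011 without 4m0Gy #1, and -0.059 without 1w0Gy #2. The 1w0Gy and 4m0Gy samples also enter the comparison over both doses, so these values are not independent of that comparison.

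The 8 genes expressed by endothelial cells, all but Vegfa, summed to 1077 and 1094 CPM in the 1w0Gy samples, 1281 and 1199 CPM in 1w4Gy, 943 and 1120.4 CPM in 4m0Gy, and 1139 and 1155 CPM in 4m4Gy. These sums overlapped between the age groups. Cdh5 made up 8.75% to 9.11% of the sum in the 1-week groups and 6.79% to 7.29% in the 4-month groups, a lower share in each of the 4 samples of the 4-month groups than in any of the 1-week groups. These shares were computed after the values of Cdh5 were known and are a description. The separation was not particular to Cdh5. The share of Tek was higher in the 4-month groups without overlap, at 6.25% to 7.65% against 5.68% to 6.16% in the 1-week groups. That of Vwf was 2.27% to 2.99% in the 1-week groups and above this in every sample of the 4-month groups, up to 3.54%. The share of Kdr overlapped, at 17.7% to 19.4% in the 1-week groups and 16.8% to 18.8% in the 4-month groups. Those of Pecam1, Emcn, Plvap, and Esam overlapped as well.

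**Figure D3:**
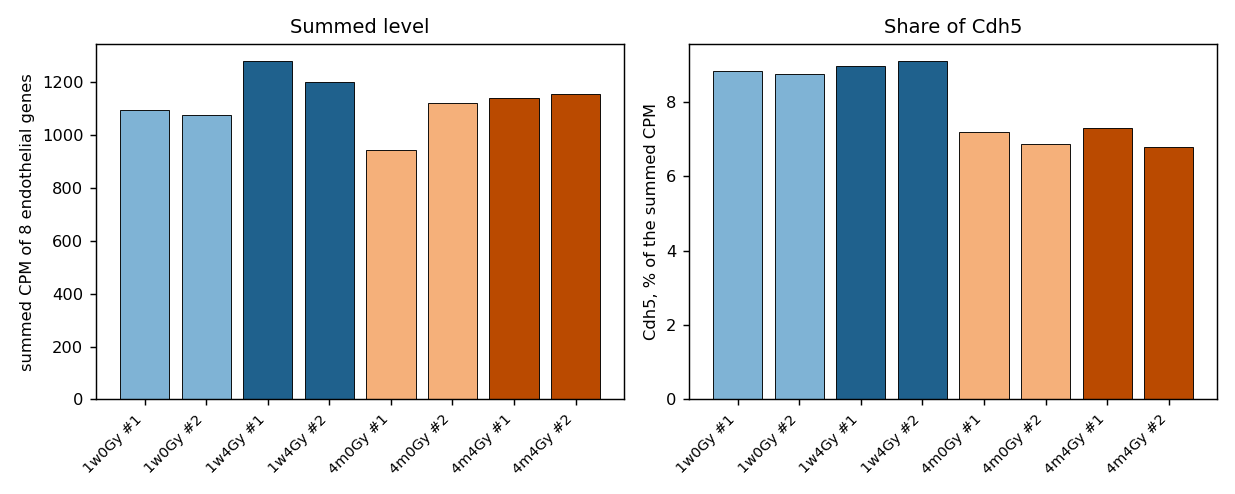
Summed CPM of the 8 endothelial genes in each sample (left) and Cdh5 as a percentage of that sum (right), with bars coloured by group. The sums ran from 943 to 1281 CPM with overlap between the age groups, while the Cdh5 share was at least 8.75% in the 1-week groups and at most 7.29% in the 4-month groups.

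After irradiation at 1 week none of the 9 genes was called, and all 9 had a small positive log2 fold change, from 0.078 for Esam to 0.28 for Pecam1. The median was 0.18, and 49.98% of all 15359 genes tested had a positive value. Beside an edgeR adjusted p under 0.05, a call here needed a change of more than 1.5-fold or to under 0.5-fold, which 0.00651% of genes had, and none of the 9 was called with DESeq2 either. An unadjusted p under 0.05 was found for 4 of the 9 genes and for 5.68% of all genes. These were Pecam1, at a log2 fold change of 0.28 ± 0.102 (standard error), Kdr at 0.28 ± 0.0927, Cdh5 at 0.23 ± 0.0819, and Tek at 0.21 ± 0.0810. For each of them edgeR's adjusted p by Benjamini-Hochberg was 0.875. These 4 genes and Vegfa had both 1w4Gy samples above both 1w0Gy samples, as did 17.6% of all genes. The sign was not stable for the rest. Without 1w4Gy #1 the log2 fold change was -0.069 for Emcn, -0.055 for Esam, and -0.010 for Plvap, and without 1w4Gy #2 it was -0.034 for Vwf. In the same comparison, lists of markers of other cells went both ways, with none called. Of 8 thyrocyte genes tested, 7 had positive values, with a median of 0.10. Of 10 pericyte and smooth muscle genes, 9 had positive values, with a median of 0.083. Several other lists had negative values. All 7 adipocyte markers had negative log2 fold changes, with a median of -0.84 and 6 of 7 at an unadjusted p under 0.05, and they summed to 383.9 and 287 CPM in 1w0Gy and to 217 and 199 CPM in 1w4Gy. All 5 C cell and parathyroid markers were negative, with a median of -0.61 and 1 at an unadjusted p under 0.05, and summed to 10470.3 and 6736 CPM in 1w0Gy and to 6112 and 5653 CPM in 1w4Gy. The values were also negative for all 5 fibroblast markers, with a median of -0.20 and 1 at an unadjusted p under 0.05, and for all 6 skeletal muscle genes tested, with a median of -0.95 and none at an unadjusted p under 0.05. The part of these cells in the values of the 9 genes was not tested.

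After irradiation at 4 months none of the 9 genes was called either, against 0.0197% of 15253 genes tested, and DESeq2 called none of them. Of the 9 genes, 8 had a positive log2 fold change, and Tek had -0.11 ± 0.110 (standard error). The median was 0.11, against 0.0091 over all genes tested, of which 51.9% were positive. It was 0.017 without 4m0Gy #1 and 0.23 without 4m0Gy #2. An unadjusted p under 0.05 was found for 3 of the 9 genes and for 8.39% of all genes. By edgeR with Benjamini-Hochberg adjustment, Esam stood at 0.32 ± 0.0957 on the log2 scale (with its standard error, adjusted p = 0.435), Plvap at 0.22 ± 0.0918 (adjusted p = 0.561), and Emcn at 0.21 ± 0.0831 (adjusted p = 0.550). These 3 genes and Cdh5, at 0.15, had both 4m4Gy samples above both 4m0Gy samples, as did 22% of all genes. Pecam1, Kdr, Vwf, and Vegfa had values of 0.024 to 0.11 that turned negative when single samples were left out, and Tek was at 0.063 without 4m0Gy #2. In this comparison 7 of 7 adipocyte markers had negative log2 fold changes, with a median of -0.59, as did 4 of 5 C cell and parathyroid markers, with a median of -0.53, and their part was not tested. Of these 12 markers only Calca, a C cell marker, had an unadjusted p under 0.05 in edgeR's test. Its log2 fold change was positive, at 0.43. The adipocyte markers summed to 126 and 259 CPM in 4m0Gy and to 144 and 122 CPM in 4m4Gy, with overlap. Pth, a parathyroid marker, was at 2759 ± 3479 CPM (SD, n = 2) in 4m4Gy.

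**Figure D4:**
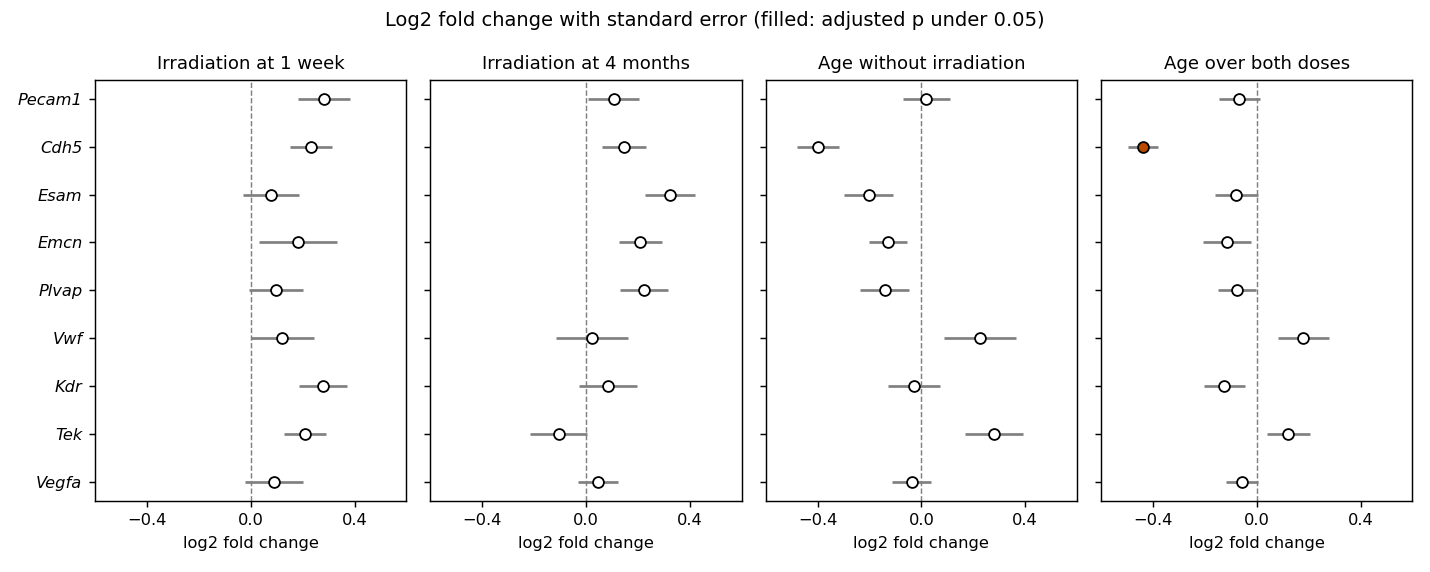
Log2 fold change of each of the 9 genes in 4 comparisons, with bars for the standard error and filled points where edgeR's adjusted p was under 0.05. Only Cdh5 is filled, at -0.44 in the comparison of age over both doses, and all 9 points are right of 0 for irradiation at 1 week.

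Over both ages, with age as a covariate, none of the 9 genes was called by edgeR or DESeq2, against 0.0128% of 15684 genes by edgeR. All 9 log2 fold changes were positive, from 0.054 for Tek to 0.20 for Esam, with a median of 0.18 against 0.0012 over all genes. An unadjusted p under 0.05 was found for Cdh5, Pecam1, Esam, and Kdr, 4 of 9 against 3.89% of all genes. Cdh5 was at 0.19 ± 0.0587 on the log2 scale (standard error), with an unadjusted p of 0.00730 that became 0.999 after Benjamini-Hochberg adjustment in edgeR. None of the 9 genes had all 4 irradiated samples above all 4 sham samples, which 1.04% of all genes had. The same samples entered the comparisons at each age, and these values add no independent observation.

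Whether the response to irradiation differed between the ages was tested as an interaction, positive where the log2 fold change was larger after irradiation at 1 week. None of the 9 genes was called, as was none of all 15684 genes tested, a percentage called of 0, while 9.12% of all genes and none of the 9 had an unadjusted p under 0.05. With DESeq2 none of the 9 and 25 of all genes were called. The largest value was that of Tek, 0.31 ± 0.142 (standard error), with an edgeR adjusted p of 0.552. Both 1w4Gy samples of Tek were above both 1w0Gy samples, and its 4m4Gy samples lay between the 4m0Gy samples. At the other end Esam had -0.25 ± 0.151 (edgeR adjusted p = 0.665). The other 7 values lay between -0.13 for Plvap and 0.19 for Kdr.

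Ligands and receptors that work with these genes were read in the same fits. Nrp1, a co-receptor of Kdr, was at 133 to 185 CPM over the 8 samples and was 0.34 higher on the log2 scale after irradiation at 1 week (edgeR adjusted p = 0.821). In the same comparison Flt4, the lymphatic VEGF receptor, had 0.32 and Tie1, the partner receptor of Tek, had 0.23. For both, edgeR's adjusted p was 0.875. Vegfb had -0.18, Vegfc -0.09, Pgf -0.08, and Angpt2 -0.10 there. Of the 8 VEGF ligands and receptors, Kdr and Vegfa among them, 5 had positive and 3 negative values, with a median of 0.080. Of the 6 angiopoietin and Tie genes, Tek among them, 4 had positive and 2 negative values, with a median of 0.13. After irradiation at 4 months the log2 fold changes were -0.10 for Nrp1, -0.07 for Flt4, and 0.05 for Tie1. Between the age groups over both doses, edgeR with Benjamini-Hochberg adjustment gave a log2 fold change of 0.73 for placental growth factor, Pgf (adjusted p = 0.0702), and of -0.52 for Angpt2, which competes with Angpt1 at Tek (adjusted p = 0.0828). Both genes had no overlap between the age groups, and neither was called. Angpt1, the activating ligand of Tek, had -0.15, Vegfb 0.14, and Vegfc -0.10 in the comparison of age over both doses. In the main fits of the 6 comparisons, none of the 8 VEGF ligands and receptors analysed passed the adjusted threshold with edgeR. Nor did any of the 6 angiopoietin and Tie genes. With 1 sample left out, genes of both lists passed in some fits of the age comparisons. With age over both doses 3 of the 8 and 2 of the 6 had an unadjusted p under 0.05, as did 20.5% of all genes tested, and DESeq2 called 2 of the VEGF genes there.

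Other vascular gene lists differed most between the age groups. Of 7 basement membrane genes, 6 fell in the 4-month groups over both doses, with a list median of -0.60, where 2.39% of all genes tested were called lower. Sparc, a matrix protein bound to collagen, went from 973 ± 70.8 CPM (SD, n = 2) in 1w0Gy and 943 ± 128 CPM in 1w4Gy to 435 ± 58.0 CPM in 4m0Gy and 499 ± 19.6 CPM in 4m4Gy, with a log2 fold change of -1.04 (adjusted p = 2.71e-04) in edgeR's test. Nid1 fell by 0.97 and Nid2 fell by 0.80 on the log2 scale, both being nidogens that link laminin and collagen IV. Lama4, a laminin chain of vessels, fell by 0.60, Col4a1 fell by 0.53, and Col4a2 fell by 0.30. Lama5, another laminin chain, had a value of 0.061. Only 4 to 6 of the 7 genes were called when 1 sample was left out, since Lama4 lost its call without any 1 of 5 samples and Col4a2 without any 1 of 6 samples.

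Of 7 angiogenesis inhibitors, 3 fell with age over both doses and none rose, where 4.27% of all genes were called in either direction and 2.39% lower. Vash1, a carboxypeptidase made by endothelial cells, fell by 1.06 on the log2 scale, and the thrombospondins Thbs2 and Thbs1 fell by 1.00 and by 0.43. Of 14 junction and surface genes, 2 fell, Cdh5 and Cd93, a receptor for matrix proteins with a log2 fold change of -0.38, which lost the call without any 1 of 6 samples. Of 12 receptors and enzymes, Aplnr, the apelin receptor, fell by 0.43 and Tfpi, an inhibitor of coagulation, rose by 0.39. Icam1, 1 of 6 genes of activated endothelium, rose by 0.47. Cxcr4, 1 of 6 tip cell genes, fell by 0.78, and Jag2 and Hey2, 2 of 14 Notch and ALK1 genes, rose by 0.33 and 0.38, and each of these 3 calls was lost without any 1 of 4 to 6 samples. Of 12 endothelial transcription factors none was called by edgeR's test, with 3 at an unadjusted p under 0.05 and 1 called by DESeq2. Among 6 lymphatic genes the count was also 0, with 4 at an unadjusted p under 0.05 and 1 called by DESeq2. Of all genes tested, 20.5% had an unadjusted p under 0.05, near the share of the transcription factors. Ndrg1 rose by 0.51, the only call among 12 genes that respond to hypoxia.

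**Figure D5:**
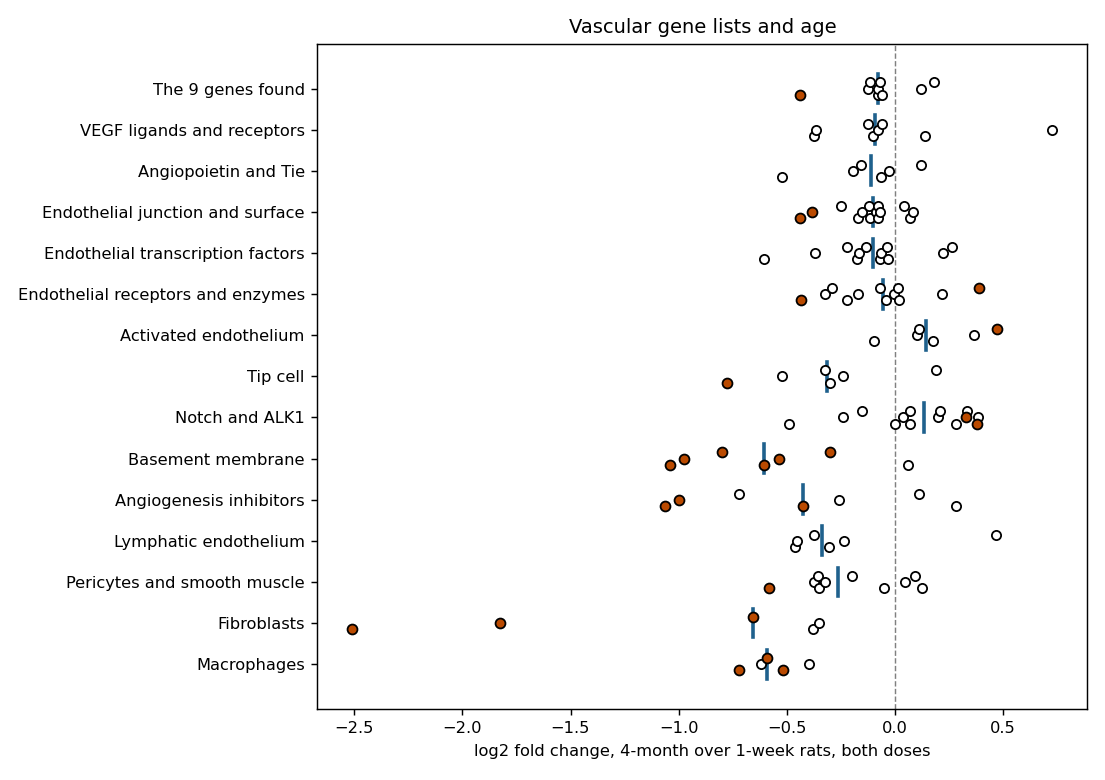
Log2 fold change of single genes, 4-month over 1-week groups over both doses, in the 9 genes and 14 lists, with filled points for an adjusted p under 0.05 in edgeR's test and bars for the list median. Basement membrane genes lie mostly left of 0 with a median of -0.60, while the 9 genes have a median of -0.076 and 1 filled point, Cdh5.

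In the sham-irradiated rats alone the same test called Sparc with -1.16, Nid2 with -0.88, Thbs1 with -0.47, and Aplnr with -0.47, all lower in 4m0Gy, and Serpinf1, the anti-angiogenic factor PEDF, with -1.03. Ndrg1 was called higher, with 0.49. In this comparison 1.06% of all genes were called. Each of these 6 calls was lost when 1 sample was left out, which held for 1 or 2 of the 4 samples. In the irradiation comparisons and the interaction no gene of any vascular list was called by edgeR or DESeq2. With 1 sample left out, edgeR called Ednrb, an endothelin receptor, at 0.61 for irradiation at 1 week without 1w4Gy #1, and Col18a1, the source of endostatin, at 0.65 for irradiation at 4 months without 4m0Gy #2. Among the vascular lists, counts at an unadjusted p under 0.05 in edgeR's test were also read. The largest after irradiation at 1 week was 5 of 14 Notch and ALK1 genes, against 5.68% of all genes. The largest after irradiation at 4 months was 3 of 14 junction and surface genes, against 8.39% of all genes. These 3 were Esam, Plvap, and Emcn, already given above for this comparison, and they add no independent observation.

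Markers of other cells moved with age as well, in the comparison over both doses with 2.39% of all genes called lower. The 5 fibroblast markers summed to 1552 to 2104 CPM in the 1-week groups and 687 to 918 CPM in the 4-month groups, and Col1a1, Col1a2, and Lum, 3 of the 5, fell, with log2 fold changes of -2.51, -1.83, and -0.65. The call of Lum was lost without any 1 of 4 samples. The 5 macrophage markers summed to 76.7 to 90.9 CPM in the 1-week groups and 44.9 to 65.2 CPM in the 4-month groups, and 3 of the 5 fell, Csf1r, Cd163, and Mrc1. The call of Mrc1 was lost without any 1 of 6 samples and that of Cd163 without 4m4Gy #1. Of 10 pericyte and smooth muscle genes 1 fell, Abcc9, by 0.58 on the log2 scale, and the list summed to 526 to 606 CPM in the 1-week groups and 379.8 to 594 CPM in the 4-month groups. Several basement membrane genes and thrombospondins are also made by fibroblasts and pericytes. The part of these cells in the age differences of Cdh5 and of the lists was not tested. The 7 adipocyte markers summed to 199 to 383.9 CPM and 122 to 259 CPM in the 1-week and 4-month groups, with 1 call, Adipoq, lower. This call was lost without any 1 of 6 samples and in 3 of 9 other settings. The 7 skeletal muscle genes found summed to 7.18 to 97.7 CPM, with overlap between the groups, and of the 6 that could be tested, all but Myh2, none was called and none had an unadjusted p under 0.05. The 6 lymphocyte markers summed to at most 3.34 CPM, with 3 of the 6 at 0 in some sample, and the 5 platelet markers, which bear on Vwf, summed to between 11.1 and 11.8 CPM, with 3 of the 5 at 0 in some sample. None of either list was called by edgeR or DESeq2. In edgeR's test only 1 of the 6, Cd79a, and 2 of the 5, Pf4 and Itga2b, passed the filter on low counts. Of these only Cd79a had an unadjusted p under 0.05. Of the blood, thyrocyte, and C cell and parathyroid lists, Hba-a2 fell, with a log2 fold change of -0.59, Tshr fell, with -0.28, and Calca rose, with 1.19. The call of Tshr was lost without any 1 of 7 samples and with sums over transcripts, and that of Calca without any 1 of 5 samples and with no filter on low counts, while Hba-a2 could not be tested by its longest transcript. In the sham-irradiated rats alone Col1a1, Col1a2, and Hba-a2 were called lower in 4m0Gy, and each call was lost without any 1 of 2 samples.

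The genes whose pattern over the 8 samples was most like that of the 8 endothelial genes were Tap2, Adcy4, Jam3, Arhgef15, and Fhod1, of 11579 genes at a mean of at least 5 CPM. Likeness was the root mean square difference in centred log2 CPM, and it was 0.0352 for Tap2, 0.0418 for Adcy4, 0.0440 for Jam3, 0.0450 for Arhgef15, and 0.0506 for Fhod1. Each of the 8 genes was set against the mean of the others. Plvap at 0.0661 and Kdr at 0.0717 were nearest, and Vwf at 0.193 and Cdh5 at 0.213 farthest. These distances cannot be compared with those of Tap2 and the genes named with it. The latter were the smallest of 11579 and were taken from the mean of all 8. The profile most like that of Vegfa was that of Rab1b, at 0.0294, followed by Sbno2, Hnrnpll, Unc45a, and Grk2, at up to 0.0342, of 11586 genes. Genes that vary little are close to any flat profile, and the Vegfa profile had a root mean square of only 0.0568.

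Of the 9 genes, 4 could be matched by symbol to promoters of RefSeq on assembly GRCr8, and the 250 bases before the start are shown to set 3 endothelial genes beside the follicular ligand. The windows are chr14:32571813-32572062 on the plus strand for Kdr, chr2:228564289-228564538 on the plus strand for Emcn, chr16:18231280-18231529 on the minus strand for Plvap, and chr9:22452604-22452853 on the plus strand for Vegfa, the more upstream of 2 starts. They are written 5′ to 3′, with capitals for GGAA on either strand, the core letters bound by ETS factors, in the first 3, and for GGGCGG, the letters bound by Sp1, on the shown strand in Vegfa.
Kdr: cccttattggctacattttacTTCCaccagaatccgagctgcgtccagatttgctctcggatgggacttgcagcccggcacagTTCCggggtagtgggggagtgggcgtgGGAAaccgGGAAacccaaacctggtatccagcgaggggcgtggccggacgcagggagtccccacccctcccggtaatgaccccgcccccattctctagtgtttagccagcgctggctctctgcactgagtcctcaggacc
Emcn: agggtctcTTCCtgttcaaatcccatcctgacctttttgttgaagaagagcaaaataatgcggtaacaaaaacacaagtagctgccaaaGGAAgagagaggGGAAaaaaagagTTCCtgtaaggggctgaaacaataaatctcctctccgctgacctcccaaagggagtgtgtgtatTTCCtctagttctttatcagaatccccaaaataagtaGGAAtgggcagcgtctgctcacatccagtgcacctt
Plvap: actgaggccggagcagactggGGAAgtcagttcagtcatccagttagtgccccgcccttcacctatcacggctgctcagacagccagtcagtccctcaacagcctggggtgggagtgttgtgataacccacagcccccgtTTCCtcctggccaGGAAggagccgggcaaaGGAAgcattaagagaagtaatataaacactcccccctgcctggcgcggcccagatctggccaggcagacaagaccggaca
Vegfa: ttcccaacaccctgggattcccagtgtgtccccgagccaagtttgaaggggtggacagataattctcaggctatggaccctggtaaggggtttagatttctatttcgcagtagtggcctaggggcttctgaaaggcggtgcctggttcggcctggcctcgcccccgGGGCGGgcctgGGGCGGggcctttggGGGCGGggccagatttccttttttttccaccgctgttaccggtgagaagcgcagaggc
GGAA stood on 1 strand or the other 4 times in Kdr, 6 times in Emcn, 4 times in Plvap, and 4 times in Vegfa. It is common, in 93.2% of 33469 promoter windows of the same length with a median of 3, and 9.27% of windows held at least as many as Emcn. GGGCGG stood 3 times in Vegfa, once in Kdr and in Plvap, and not in Emcn, and 30.5% of all windows held it. The letters ACGTG, 1 form of the hypoxia response core, were in none of the 4 windows and in 16.6% of all windows, on both strands. The form GCGTG was not counted, and it stands in the Kdr window. The share of G and C was 61.6% in Kdr, 44.4% in Emcn, 59.2% in Plvap, and 60.4% in Vegfa, with a median of 51.2% over all windows. These letter matches describe the windows and bear on no binding. On GRCr8 Plvap overlaps the long noncoding RNA LOC134482466, and how strand was used in counting is not given in the sources used here, so reads of the pair may be mixed in the Plvap count.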

How the data were processed

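Thyroid RNA of 8 rats was sequenced as 100 bp paired reads from directional libraries. The authors mapped the reads with HISAT2 2.2.1 and counted them with featureCounts 2.0.0, and the genome build is not given in the sources used here. The deposited table holds raw counts for 54991 transcripts, with RPKM and TPM that the authors computed from them. The counts were tested, the deposited TPM served to compare levels between genes, and the deposited RPKM were read for their unit only.

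The transcript with the highest summed count was taken for each gene. Counts on genes had a median of 16180961 per sample. With 2 rats per group, the spread between rats limits the precision. Tests used R 4.3.3 and edgeR 4.0.16, with TMM, filterByExpr, robust quasi-likelihood fits, and Benjamini-Hochberg adjustment over all genes tested. The robust setting was not part of the written design, and fits without it were added as an alternative after seeing the data. A call needed an adjusted p under 0.05, and both irradiation comparisons within an age also required a fold change above 1.5 or under 0.5. Irradiation at each age and age without irradiation were fitted on their own 4 samples, and the other comparisons on all 8. Alternatives were DESeq2 1.42.0 with the Wald test, normalization by its size factors or by the upper quartile, dropping the filter or asking for 10 counts in each sample, sums over transcripts or the longest transcript, the replicate number as a block, fits of all 8 samples, no fold limit, and leaving out each sample.

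The genes, 22 marker and pathway lists, and the tests were chosen with earlier results of these data known. The VEGF, angiopoietin and Tie, and junction and surface lists also hold genes of the 9. Genes named beside the 9 are list genes called in a comparison (at most the 5 with the smallest p per list, plus Col4a2), their ligand and receptor partners, Cdkn1a, and the 5 nearest profiles. Promoter sequences are those of RefSeq on GRCr8. The scripts were tested on simulated counts.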

Additional observations from a re-analysis of the deposited data

How the results depend on the processing

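Of the 9 genes, only Cdh5 was called, in the comparison of age over both doses, and this call was made under every alternative run. Outside the fits that left out 1 sample, no log2 fold change of the 9 genes changed sign. With no filter on low counts, 1 of the 9, Cdh5, was called for age without irradiation. For that comparison the number of all genes called was 163, and it was 342 with DESeq2, 507 with no filter, 27 with sums over transcripts, and 13 with the replicate block. For irradiation at 1 week it was 1, and 13 with DESeq2, 2 with no filter, 0 with sums over transcripts, 11 with the block, and 0 without robust estimation. For irradiation at 4 months it was 3, and 6 with DESeq2, 14 with no filter, 0 with sums over transcripts, 12 with the block, 1 in the fit of all 8 samples, and 0 without robust estimation. For age over both doses it was 669, and 1040 with DESeq2. For irradiation over both ages it was 2, and 10 with DESeq2, 1 with at least 10 counts in every sample, and 1 without robust estimation. For the interaction it was 0, and 25 with DESeq2 and 7 with no filter. The cause was not tested.

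Leaving out 1 sample gave 2 to 45 genes called for irradiation at 1 week, 3 to 52 at 4 months, 12 to 746 for age without irradiation, 292 to 667 for age over both doses, 1 to 5 for irradiation over both ages, and 0 to 22 for the interaction. The number of the 9 genes called was 0 to 1 for age without irradiation. The median log2 fold change of the 9 genes ran from 0.017 to 0.23 for irradiation at 4 months, -0.17 to -0.011 for age without irradiation, and -0.0031 to 0.17 for the interaction. Signs turned for irradiation at 1 week in Emcn (-0.069 to 0.40), Plvap (-0.010 to 0.20), Esam (-0.055 to 0.20), and Vwf (-0.034 to 0.26). They turned for irradiation at 4 months in Pecam1 (-0.0074 to 0.22), Kdr (-0.051 to 0.22), Vwf (-0.16 to 0.23), Tek (-0.26 to 0.063), and Vegfa (-0.0091 to 0.089). They turned for age without irradiation in Kdr (-0.18 to 0.10) and Pecam1 (-0.11 to 0.13), and for age over both doses in Pecam1 (-0.13 to 0.00027). For the interaction they turned in Emcn (-0.28 to 0.18), Vegfa (-0.0080 to 0.091), Vwf (-0.12 to 0.28), and Cdh5 (-0.0031 to 0.17). Where a fit left 1 sample in a group, that sample was assumed to vary like the others.

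Same-numbered samples of different groups had correlations of their deviations from the group means between -0.25 and 0.29. With 2 samples per group, each pair of groups gives a single correlation over genes. These values therefore cannot decide whether the numbers paired the samples. With the replicate number as a block, the calls of the 9 genes did not change, and age over both doses gave 694 genes. Of the other named genes, all 9 called for age without irradiation lost the call with the block, with adjusted p-values of 0.0586 to 0.129, as did 2 of those called for age over both doses, Cd93 (0.0574) and Adipoq (0.0731). At these depths all 9 genes had at least 465 counts per sample, and each group had 2 rats. How far depth and the spread between rats limited what could be detected was not tested.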
